A study of Mus musculus with 18 samples.

Results

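CD4 single positive (SP) thymocytes are the CD4-lineage cells that have completed selection in the thymus, and naive CD4 cells are their descendants in the periphery that have not yet met antigen. Cytosine modifications of these neighbouring stages were compared at 65 CpG cytosines of 4 loci. The cytosines were chosen as those in a CpG of the mouse sequence with at least 10 reads in all 12 libraries of both stages, and 104 CpG cytosines were listed in at least 1 of these libraries. Of the 65, 64 were also covered in all 18 libraries of the series. No position with fewer than 10 reads is listed, and the member with the least reads in any library, a Pax5 cytosine at 44628784, had 20 reads in naive CD4 oxBS library 1. The 39 CpG cytosines outside the rule were absent from some libraries.

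The series follows modified cytosines through T-cell development by targeted sequencing. All cells came from female C57/BL6 mice aged 4 to 6 weeks. CD4 SP cells were sorted from thymus as CD4 cells with high CD3 and intermediate or low CD24. Naive CD4 cells were sorted as CD4+, CD62L high, CD25- and CD44 low from pooled spleen and lymph nodes, so the comparison of stages is also a comparison of organs. The DNA of each preparation was divided, and 1 portion was oxidised with KRuO4 before bisulfite treatment. This gave 3 BS-seq and 3 oxBS-seq libraries per stage, which the study describes as isolations from independent mice. The files hold targeted DNA only, so the labelled cell types could not be checked against marker genes.

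Methylation of cytosine in CpG dinucleotides (5mC) is copied to the new strand when DNA replicates, and it is removed either by failure of that copying or through oxidation by TET enzymes, whose first product is 5-hydroxymethylcytosine (5hmC). Bisulfite turns unmodified cytosine into a base read as T and leaves 5mC and 5hmC as C, so BS libraries read the total of both marks as their unconverted share. The later TET products 5-formylcytosine (5fC) and 5-carboxylcytosine (5caC) are converted like unmodified cytosine. Converted reads therefore cannot tell them from it. Oxidation makes 5hmC convertible as well, so the unconverted share of an oxBS library reads 5mC. The difference of the shares, BS minus oxBS, is the direct estimate of 5hmC, and a negative difference is not an amount of 5hmC.

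The loci belong to genes with different roles. Il6ra encodes the ligand-binding chain of the interleukin-6 receptor, and Prkcq encodes protein kinase C theta, a kinase of T-cell receptor signalling. Zbtb7b encodes ThPOK, the transcription factor that commits thymocytes to the CD4 lineage. Pax5 encodes the transcription factor that specifies B cells. In the mm9 (NCBIM37) build with GENCODE vM1, the Il6ra locus lies on chromosome 3 from 89679038 to 89679232 in an intron, with 12 of the cytosines. The Prkcq locus lies on chromosome 2 from 11124412 to 11124609, also in an intron, with 17. The Zbtb7b locus lies on chromosome 3 from 89184744 to 89185022, inside the coding exon from 89184266 to 89185437, with 28. The Pax5 locus lies on chromosome 4 from 44628612 to 44628931 in an intron, with 8 cytosines that are all on the forward strand.

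The covered stretches of the loci that changed most are given here 5′ to 3′ on the forward strand, with every covered CpG in capitals, because the results below are read per CpG and per strand. They are Il6ra chr3:89679062-89679211, Prkcq chr2:11124453-11124570 and Zbtb7b chr3:89184766-89184989.
Il6ra: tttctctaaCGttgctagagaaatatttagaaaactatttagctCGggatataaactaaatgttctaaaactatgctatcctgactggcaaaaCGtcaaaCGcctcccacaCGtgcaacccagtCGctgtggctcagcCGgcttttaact
Prkcq: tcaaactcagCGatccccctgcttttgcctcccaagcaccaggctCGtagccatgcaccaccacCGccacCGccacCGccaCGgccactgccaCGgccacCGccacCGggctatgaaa
Zbtb7b: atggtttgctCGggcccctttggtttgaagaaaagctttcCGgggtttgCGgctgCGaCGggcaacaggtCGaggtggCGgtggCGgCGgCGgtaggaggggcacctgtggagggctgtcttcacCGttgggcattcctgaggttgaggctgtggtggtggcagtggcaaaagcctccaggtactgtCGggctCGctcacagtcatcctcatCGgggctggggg

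The Il6ra stretch holds 7 CpGs in 150 bp (4.67 per 100 bp, GC content 42%), and the 5 that were covered on both strands lie together at its right end. In Prkcq the 9 CpGs (7.63 per 100 bp, GC content 66.1%) sit mostly in short CCACCG and CCACGG repeats. Zbtb7b holds 14 CpGs in 224 bp (6.25 per 100 bp, GC content 63.4%), and Pax5 has 8 in 286 bp (2.80 per 100 bp, GC content 53.5%). Only the Il6ra locus holds an E-box of the letters CACGTG, a palindrome that reads alike on both strands and is bound by basic helix-loop-helix factors. It lies at chr3:89679171-89679176, and 1.73% of windows of 195 bp on chromosome 3 hold that motif. It is given with its flanks and with the motif in capitals.
Il6ra E-box, chr3:89679159-89679188, forward strand: aaacgcctcccaCACGTGcaacccagtcgc

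The libraries held between 3450894 and 8602209 cytosine read-outs, and members had from 20 to 126198 reads. Control DNA in each library showed an unconverted share of 0.0409 to 0.0683% for unmodified and 99.3 to 99.5% for 5mC cytosines. The control intervals were named here by the order of their mean unconverted shares, so that order itself is no check. The 5hmC control had a BS share of 6.45% ± 0.667 in CD4 SP against 5.86% ± 0.468 in naive CD4 libraries, and an oxBS share of 1.27% ± 0.201 and 1.14% ± 0.138 (SD, n = 3). The study describes this control as impure, and no oxidation efficiency was derived from it here. Over 362 non-CpG cytosines, the background of the assay, the group means lay between 0.202 and 0.229%. CD4 SP oxBS libraries 2 and 3 had CpG shares that agree within sampling noise (chi-square over 65 cytosines, p = 0.858). Their read totals per strand did not (chi-square per degree of freedom 16.97, the lowest of all replicate pairs), which cannot show separate preparations. They were counted as separate, as labelled. In every group libraries 2 and 3 were closer to each other than to library 1, in CD4 SP BS with a chi-square of 96.2 against 783 and 682. Whether the 3 replicates are equally independent was not tested. At the forward strand of Il6ra, naive CD4 BS library 1 had only 72 to 73 reads per cytosine and stood apart from libraries 2 and 3. The results that it moves most are given with and without it.

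Total modification was lower in naive CD4 than in CD4 SP cells. The BS share averaged over the 65 cytosines was 75.5, 73.6 and 74.5% in CD4 SP libraries 1 to 3 and 56.8, 53.0 and 53.7% in naive CD4 libraries 1 to 3. All naive CD4 libraries lay below all CD4 SP libraries, with means of 74.5% ± 0.920 and 54.5% ± 2.03 (SD, n = 3) and a difference of -20.1 points ± 1.29 (SE). The exact permutation test over libraries gave p = 0.10, two-sided, the smallest that 3 against 3 libraries allow. No library-level test here could therefore pass 0.05, and sizes are read against the spread of the libraries.

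5mC was lower too. The oxBS share was 73.1, 73.7 and 74.0% in CD4 SP against 58.4, 58.0 and 58.0% in naive CD4 libraries. The groups did not overlap, with means of 73.6% ± 0.454 and 58.1% ± 0.252 (SD, n = 3) and a difference of -15.5 points ± 0.300 (SE, exact permutation p = 0.10). The oxBS libraries thus lost 21.0% of their CD4 SP share and the BS libraries 26.9%. With reads pooled over cytosines the differences were -32.9 points in oxBS and -28.7 in BS, so oxBS then moved further. Naive CD4 BS library 1 was shallow at the forward strand of Il6ra. Without naive CD4 pair 1 the pooled change of BS minus oxBS was -5.80 points, with BS moving further again, a value computed after seeing the data.

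BS minus oxBS was close to 0 in CD4 SP and below 0 in naive CD4 cells. It was 2.36, -0.0349 and 0.495 points in the CD4 SP pairs and -1.63, -5.00 and -4.31 in the naive CD4 pairs. The means were 0.940 ± 1.26 and -3.65 ± 1.78 points (SD, n = 3 pairs), a change of -4.59 ± 1.26 (SE, exact permutation p = 0.10). Without the forward strand of Il6ra, a choice made after seeing the data, the change was -5.55 points. With reads pooled over cytosines the change was 4.26 points and the pairs overlapped (exact permutation p = 1). Naive CD4 pair 1 then stood at 15.8 points against -14.5 and -14.2 in pairs 2 and 3, and without it the pooled change was -5.80 points, a value computed after seeing the data.

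Single cytosines moved the same way in most cases. On the counts of each cytosine, edgeR's quasi-likelihood test with Benjamini-Hochberg adjustment over the 65 called a changed BS share at 59 (90.8%), with 58 lower (89.2%) and 1 higher (1.54%) in naive CD4 cells. It called a changed oxBS share at 57 (87.7%), with 56 lower (86.2%) and 1 higher (1.54%). CD4 SP and naive CD4 libraries were apart without overlap at 58 lower (89.2%) and 1 higher (1.54%) cytosines in BS and at 57 lower (87.7%) and 1 higher (1.54%) in oxBS. At 50 cytosines both shares fell, at 8 only BS passed as lower and at 6 only oxBS did. The rises were at Pax5 44628908 in BS and at Zbtb7b 89184825, reverse strand, in oxBS. Changes of the means ranged from -54.2 to 8.90 points in BS, with a median of -14.7, and from -52.1 to 4.01 points in oxBS, with a median of -8.97. Since nearly all cytosines passed, a locus is described below by the sizes of its changes and not by its number of calls.

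**Figure D1:**
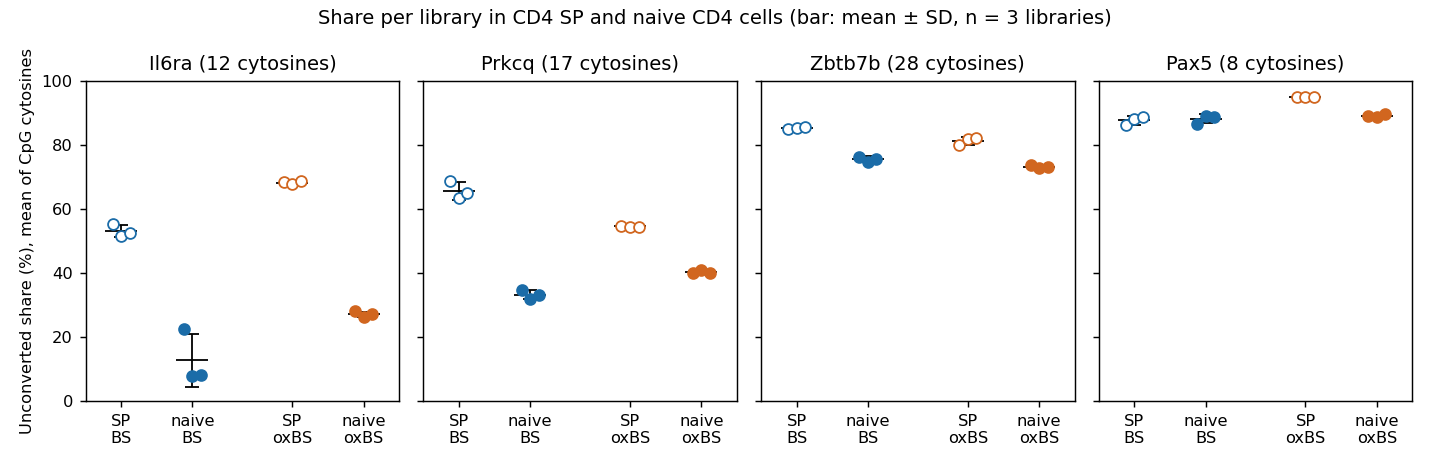
Mean unconverted share (percent) of the CpG cytosines of each locus in every library, CD4 SP as open and naive CD4 as filled points, BS in blue and oxBS in orange, with mean ± SD (n = 3) as bars. The naive CD4 points sit below the CD4 SP points in both assays at Il6ra, Prkcq and Zbtb7b, while at Pax5 the BS points overlap, and 1 naive CD4 BS library at Il6ra, at 22.5%, stands above the other 2.

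Il6ra carried the largest mean changes of the 4 loci. Its BS share was 55.3, 51.5 and 52.6% in CD4 SP against 22.5, 7.81 and 8.26% in naive CD4 libraries. The groups did not overlap, and naive CD4 library 1 was the highest of its group, at the forward strand where it had few reads. The means were 53.1% ± 1.94 and 12.8% ± 8.34 (SD, n = 3), a difference of -40.3 points ± 4.94 (SE, exact permutation p = 0.10, 0.12 after adjustment over 12 tests of loci and measures). Without naive CD4 replicate 1 the difference was -45.1 points.

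The oxBS share at Il6ra did not involve that library and was tight. It was 68.4, 67.8 and 68.8% in CD4 SP against 28.1, 26.5 and 27.1% in naive CD4 libraries, with means of 68.3% ± 0.513 and 27.2% ± 0.809 (SD, n = 3). The difference of -41.1 points ± 0.553 (SE, exact permutation p = 0.10, adjusted 0.12) was many times the spread of either group. Each of the 12 cytosines fell in both assays by edgeR (largest adjusted p = 1.65e-07, oxBS), against 89.2% of all 65 in BS and 86.2% in oxBS.

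BS was below oxBS at this locus in both stages. BS minus oxBS was -13.1, -16.3 and -16.2 points in CD4 SP against -5.61, -18.7 and -18.9 in naive CD4 pairs. These groups overlapped, and the means of -15.2 ± 1.78 and -14.4 ± 7.60 (SD, n = 3 pairs) differed by 0.813 ± 4.51 (SE, exact permutation p = 1). Without naive CD4 replicate 1 the change was -3.57 points. A share of 5hmC cannot be below 0, so at Il6ra the direct estimate gives no amount of 5hmC in either stage and the assays do not give 1 value of the total.

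The strands of Il6ra were read at different depth. The reverse strand, with library medians of 1954 to 8838 reads, had a BS share of 60.5, 56.1 and 58.0% in CD4 SP against 10.4, 10.6 and 11.2% in naive CD4 libraries. Its mean went from 58.2% ± 2.24 to 10.7% ± 0.455 (SD, n = 3), a difference of -47.5 points without any library that stood apart. The oxBS share there went from 72.8% ± 0.792 to 29.0% ± 1.46, a difference of -43.8 points (exact permutation p = 0.10 for both, adjusted 0.111 over 21 tests of strands and measures).

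On the forward strand the BS share was 47.9, 45.1 and 45.1% in CD4 SP against 39.4, 3.92 and 4.09% in naive CD4 libraries. Naive CD4 library 1 lay next to the CD4 SP libraries here, on 72 to 73 reads against at least 77283 in libraries 2 and 3. At 89679155, for instance, its share was 38.4% (Wilson 95% interval 28.1 to 49.8%, 73 reads) against 1.49% and 1.62% in libraries 2 and 3. The difference of the forward strand was -30.2 points with that library and -42.0 without it.

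Within Il6ra the 2 CpGs at the left end, covered on the reverse strand only, were set against the 5 around the E-box. This grouping was made after the values were seen, and not all of the 5 were alike. At 89679162 (forward strand) the CD4 SP BS share was 62.7% ± 1.79. Its BS minus oxBS was -0.894 ± 1.61 points (SD, n = 3 pairs), with pairs of mixed sign. At 89679107 (reverse strand), where the BS change was largest, the BS share was 75.9, 70.4 and 73.0% in CD4 SP against 18.2, 19.5 and 20.7% in naive CD4 libraries, and oxBS went from 71.1% ± 1.01 to 36.7% ± 1.19. Its BS minus oxBS went from 2.01 ± 1.74 to -17.2 ± 1.86 points (SD, n = 3 pairs). At 89679072 (reverse strand) BS went from 86.7% ± 1.57 to 43.7% ± 0.756 and oxBS from 80.8% ± 1.48 to 53.9% ± 2.66, the smallest oxBS change of the locus at -26.9 points. These were the members of Il6ra with BS above oxBS in all 3 CD4 SP pairs. At 89679201 (reverse strand) oxBS had its largest change, from 73.3, 72.4 and 74.9% to 22.3, 20.2 and 21.6%, or -52.1 points, while BS went from 47.5% ± 1.65 to 1.86% ± 0.465. The naive CD4 BS libraries read this cytosine as almost fully converted, while 20.2 to 22.3% of the reads stayed unconverted in the oxBS libraries.

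The CpG of the E-box behaved as its neighbours did. Its reverse-strand cytosine at 89679174 had a BS share of 51.5, 46.7 and 48.8% in CD4 SP against 1.80, 1.28 and 1.96% in naive CD4 libraries. The oxBS share there was 73.0, 71.6 and 72.1% and then 22.8, 19.4 and 20.7%, with no overlap in either assay and changes of -47.3 and -51.3 points. The forward-strand cytosine at 89679173 had an oxBS share of 60.1% ± 0.451 in CD4 SP against 22.6% ± 0.316 in naive CD4 (SD, n = 3), a change of -37.5 points. Its BS share was 44.1, 41.1 and 41.3% and then 36.1, 1.40 and 1.59%, where the 36.1% is naive CD4 library 1 on 72 reads (Wilson 95% interval 26.0 to 47.6%). BS minus oxBS of the reverse-strand cytosine was -23.2 ± 1.66 points in CD4 SP against -19.3 ± 1.52 in naive CD4 (SD, n = 3 pairs). The total read by BS was thus below the 5mC read by oxBS at this cytosine in both stages. At the forward-strand cytosine the difference was below 0 in all CD4 SP pairs and was 13.2, -21.2 and -20.7 points in naive CD4 pairs 1 to 3.

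**Figure D2:**
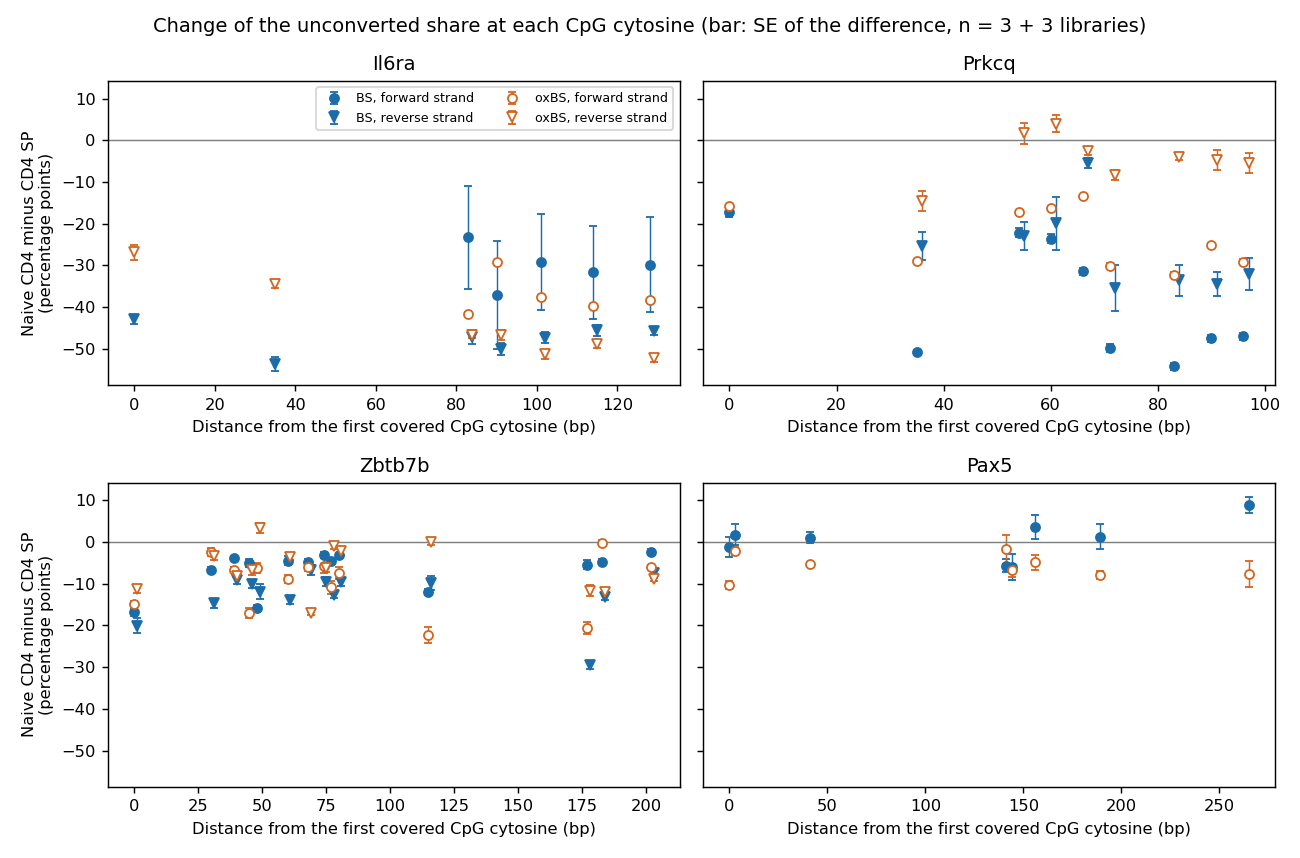
Change of the unconverted share (naive CD4 minus CD4 SP, percentage points) at each CpG cytosine against its distance (bp) from the first covered CpG cytosine, BS in filled blue and oxBS in open orange, circles for the forward and triangles for the reverse strand, bars for the SE of the difference (n = 3 and 3 libraries). All Il6ra points lie at or below -23.3 points, the oxBS triangles of Prkcq lie between -14.5 and 4.01 while its oxBS circles reach -32.2, and the Pax5 points lie within 10.3 points of 0.

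Prkcq was the locus where BS and oxBS changed most unequally. The BS share was 68.9, 63.4 and 65.1% in CD4 SP against 34.7, 32.0 and 33.1% in naive CD4 libraries, with means of 65.8% ± 2.83 and 33.3% ± 1.37 (SD, n = 3). The oxBS share was 54.9, 54.4 and 54.6% and then 40.1, 41.04 and 39.99%, with means of 54.6% ± 0.249 and 40.4% ± 0.583. Neither assay showed overlap, and the differences were -32.5 points ± 1.81 and -14.2 points ± 0.366 (SE, exact permutation p = 0.10, adjusted 0.12). Over the cytosines with at least 100 reads, all on the forward strand, the oxBS difference was -23.1 points.

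BS minus oxBS at Prkcq changed sign between the stages. It was 14.02, 8.98 and 10.5 points in the CD4 SP pairs and -5.37, -9.06 and -6.85 in the naive CD4 pairs. The means of 11.2 ± 2.58 and -7.09 ± 1.86 (SD, n = 3 pairs) differed by -18.3 points ± 1.84 (SE, exact permutation p = 0.10, adjusted 0.12). In CD4 SP 15 of the 17 cytosines had BS above oxBS in all 3 pairs, and in naive CD4 3 had. In naive CD4 10 of the 17 had BS below oxBS in all 3 pairs, against 27 of all 65. The naive CD4 value of the locus is thus not an amount of 5hmC.

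The strands of Prkcq gave unlike shares of the same CpGs. On the forward strand the oxBS share was 80.2, 81.0 and 80.8% in CD4 SP against 58.2, 57.5 and 57.0% in naive CD4 libraries, a difference of -23.1 points ± 0.416 (SE). On the reverse strand it was 26.3, 24.4 and 25.1% and then 19.7, 22.6 and 20.9%, a difference of -4.23 ± 0.9896 (SE). With an oxidation efficiency of 0.9 this difference was -1.80 points and the libraries overlapped (exact permutation p = 0.3). The drop was larger on the forward strand by 18.9 points, with no overlap of the libraries (exact permutation p = 0.10, adjusted 0.112 over 9 strand contrasts). Forward-strand cytosines had library medians of 6888 to 11497 reads and reverse-strand cytosines 59 to 526, so depth moved with strand and its part in the difference was not tested.

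In BS the strands of Prkcq went from 83.1% ± 0.804 to 44.9% ± 1.23 on the forward and from 46.3% ± 5.23 to 20.2% ± 1.60 on the reverse strand (SD, n = 3). BS minus oxBS went from 2.402 ± 1.16 to -12.6 ± 0.831 points on the forward strand and from 21.0 ± 4.26 to -0.879 ± 3.01 on the reverse strand (SD, n = 3 pairs). The positive difference of Prkcq in CD4 SP cells was therefore mostly a difference of its thinly covered reverse strand, while the negative difference in naive CD4 cells came from the forward strand.

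By edgeR (adjusted p under 0.05) 89.2% of all 65 cytosines fell in BS and 86.2% in oxBS. At Prkcq all 9 forward cytosines fell in both assays, and on the reverse strand all 8 fell in BS and 4 in oxBS. The largest change in both assays was at 11124546 (forward strand). Its BS share was 75.1, 72.7 and 72.3% in CD4 SP against 19.6, 19.0 and 18.9% in naive CD4 libraries, a change of -54.2 points. The oxBS share was 81.8, 83.6 and 83.2% and then 51.1, 50.7 and 50.1%, a change of -32.2 points, on at least 6871 reads. Its BS minus oxBS moved from -9.51 ± 2.44 to -31.4 ± 0.246 points (SD, n = 3 pairs), the most negative value of any member.

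The smallest oxBS changes of Prkcq were on its reverse strand. At 11124518 oxBS was 51.9, 46.0 and 44.0% in CD4 SP against 47.4, 50.5 and 49.1% in naive CD4 libraries. The groups overlapped, and the change of 1.72 points did not pass (edgeR adjusted p = 0.306). Its BS share meanwhile was 78.0, 70.3 and 78.5% and then 56.6, 49.3 and 52.0%, a change of -22.9 points (edgeR adjusted p = 2.10e-07). At 11124554 BS minus oxBS had its largest change of all members, from 29.1, 18.5 and 22.0 points to -2.80, -9.81 and -6.78, on as few as 59 reads. A cytosine picked after its values were seen, 11124530, was almost fully converted on the reverse strand in both stages. Its BS shares were 6.83% ± 1.96 and 1.41% ± 0.0595 and its oxBS shares 4.65% ± 1.35 and 2.16% ± 0.871. The forward cytosine of the same CpG, 11124529, had BS shares of 93.2% ± 0.549 and 61.8% ± 1.21 (SD, n = 3).

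Zbtb7b stayed highly modified and moved by smaller steps. Its BS share was 85.1, 85.2 and 85.5% in CD4 SP against 76.4, 74.7 and 75.7% in naive CD4 libraries, with means of 85.3% ± 0.233 and 75.6% ± 0.878 (SD, n = 3). The oxBS share was 79.9, 81.9 and 82.1% and then 73.9, 72.9 and 73.2%, with means of 81.3% ± 1.18 and 73.3% ± 0.498. The libraries did not overlap in either assay, with differences of -9.69 points ± 0.524 and -7.98 points ± 0.737 (SE, exact permutation p = 0.10, adjusted 0.12). All 28 cytosines fell in BS, and 24 fell and 1 rose in oxBS (edgeR, adjusted p under 0.05). Over all 65 cytosines 89.2% fell in BS and 86.2% in oxBS.

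BS minus oxBS of Zbtb7b was positive in every pair, at 5.15, 3.34 and 3.47 points in CD4 SP against 2.55, 1.79 and 2.49 in naive CD4 cells. The change was -1.71 points ± 0.631 (SE, exact permutation p = 0.10, adjusted 0.12), or -1.13 without CD4 SP replicate 1. The strands, covered to a like depth with library medians from 1491.5 to 3973 reads, moved in opposite directions. On the forward strand the difference was 4.40, 2.53 and 2.33 points in CD4 SP against 5.93, 5.85 and 6.48 in naive CD4 pairs. On the reverse strand it was 5.89, 4.15 and 4.62 points and then -0.829, -2.27 and -1.49. The changes of 3.00 and -6.41 points differed by 9.41 with no overlap of the pairs (exact permutation p = 0.10, adjusted 0.112), so the small change of the locus averages opposite changes of its strands.

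At 89184954 (reverse strand) the Zbtb7b locus had its largest changes of BS and of BS minus oxBS. The BS share was 88.9, 86.4 and 88.1% in CD4 SP against 59.0, 57.3 and 58.7% in naive CD4 libraries, a change of -29.5 points. Its BS minus oxBS went from 10.98, 7.63 and 10.4 points to -10.1, -7.87 and -6.39. The largest oxBS change was at 89184891 (forward strand), from 62.2, 67.2 and 67.9% to 43.6, 43.0 and 43.7%, or -22.3 points. The cytosine across from it in the same CpG, 89184892, had the smallest, from 52.9, 53.5 and 53.0% to 54.4, 52.6 and 52.4%, where the groups overlapped and the change of -0.0315 points did not pass (edgeR adjusted p = 0.942). The strands of this CpG thus gave the extremes of the locus, each on at least 1494 reads.

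Pax5, a B-cell gene, kept its BS share within the spread of the libraries. The BS share was 86.2, 88.2 and 88.9% in CD4 SP against 86.6, 89.2 and 88.8% in naive CD4 libraries. The groups overlapped, and the means of 87.8% ± 1.38 and 88.2% ± 1.40 (SD, n = 3) differed by 0.456 points ± 1.14 (SE, exact permutation p = 0.6, adjusted 0.655). The oxBS share was 95.1, 94.9 and 95.03% and then 88.9, 88.9 and 89.7%, which did not overlap and differed by -5.85 points ± 0.256 (SE, exact permutation p = 0.10, adjusted 0.12). BS minus oxBS went from -8.91, -6.65 and -6.18 points to -2.33, 0.333 and -0.825, so here it was higher in naive CD4 cells, by 6.31 points ± 1.14 (SE), though its mean stayed below 0. With BS below oxBS, the assays do not give 1 value of the total at Pax5.

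Library medians at Pax5 ran from only 67.5 to 1493 reads. By edgeR 86.2% of all 65 cytosines fell in oxBS, and in BS 1.54% rose and 89.2% fell. At Pax5 7 of the 8 fell in oxBS, and in BS 1 rose and 1 fell. At 44628643 oxBS had its largest change, from 86.5, 85.9 and 88.2% to 77.4, 75.2 and 77.1%, or -10.3 points, on at least 63 reads. The rise in BS was at 44628908, from 85.9, 81.8 and 81.4% to 94.7, 90.3 and 90.8% (edgeR adjusted p = 2.01e-05), while its oxBS share went from 94.7% ± 1.24 to 87.0% ± 5.29. Its BS minus oxBS moved by 16.6 points, from below 0 in all 3 CD4 SP pairs to above 0 in all 3 naive CD4 pairs. At 44628784, the member with the least reads, oxBS was 95, 100 and 98.9% and then 90, 99.4 and 99.4%, with overlap and a change of -1.69 points (edgeR adjusted p = 0.901).

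**Figure D3:**
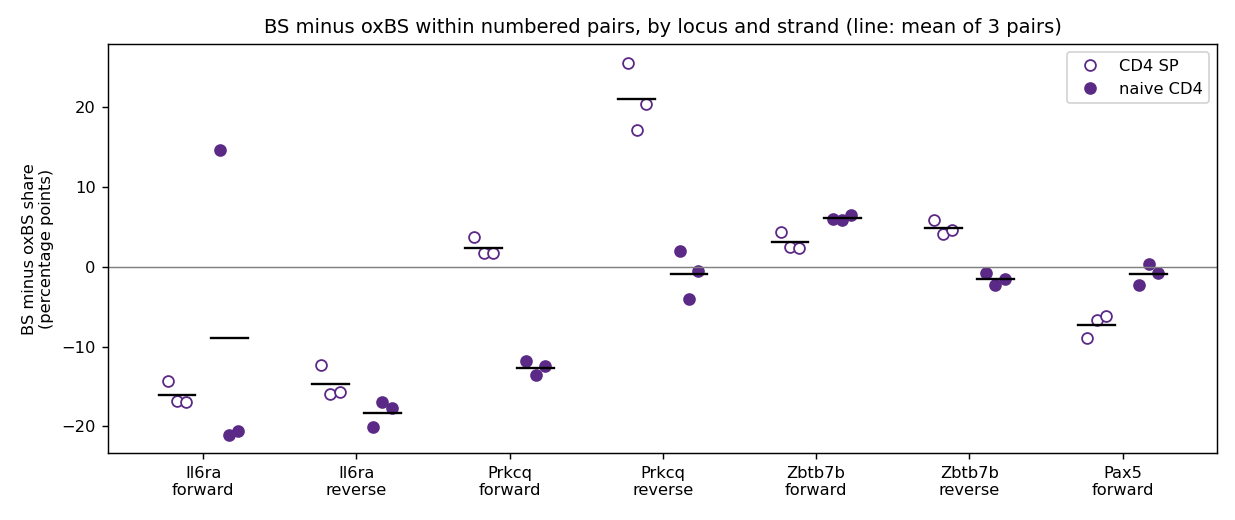
BS minus oxBS share (percentage points) of each numbered pair, by locus and strand, CD4 SP as open and naive CD4 as filled points, with the mean of 3 pairs as a line. The reverse strand of Prkcq is highest in CD4 SP at 21.0 points, the Zbtb7b strands part in naive CD4, the Pax5 pairs move up toward 0, and naive CD4 pair 1 at the forward strand of Il6ra, at 14.7 points, is the pair with few BS reads.

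The loci were then set against each other, by taking the difference of 2 loci within each library and comparing it between the stages. In BS the change at Il6ra (-40.3 points) was 7.77 points larger than that at Prkcq (-32.5), and here the libraries overlapped (exact permutation p = 0.3). This holds naive CD4 BS library 1, shallow at the forward strand of Il6ra. Without naive CD4 replicate 1 the changes were -45.1 points at Il6ra and -33.2 at Prkcq, and their contrast was not tested. With all libraries, the changes of Il6ra and Prkcq were larger than those of Zbtb7b and Pax5 with no overlap. In oxBS, Il6ra (-41.1 points) moved further than Prkcq (-14.2) by 26.8 points, and Prkcq moved further than Zbtb7b (-7.98) by 6.26, again with no overlap. Zbtb7b and Pax5 (-5.85) overlapped in oxBS (exact permutation p = 0.2). The change of BS minus oxBS at Prkcq was below that of each other locus with no overlap. Each comparison without overlap had an exact permutation p of 0.10, or 0.129 after adjustment over 18 contrasts of loci.

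On the logit scale of edgeR, where a step near 0 or 100% counts for more than the same step in the middle, the BS change was unequal to the oxBS change at 57 of 65 cytosines (87.7%), with BS falling further at 44 (67.7%) and less, or rising, at 13 (20%). Points and odds do not rank alike. At Il6ra all 12 cytosines were called with the larger fall in BS on the logit scale, although BS minus oxBS in points was higher in naive CD4 at 7 of the 12, or at 5 without naive CD4 pair 1. At the E-box cytosine 89679174, for example, naive CD4 BS and oxBS stood at 1.68% and 20.95%, so similar steps in points were unlike steps in odds. At Prkcq 16 of 17 were called with the larger fall in BS, at Zbtb7b 16 with the larger and 8 with the smaller fall, and at Pax5 5 of 8 with the smaller. In points, without a test, BS minus oxBS of the pairs did not overlap between the stages at 51 of 65 cytosines, 32 lower (49.2%) and 19 higher (29.2%) in naive CD4.

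Both cytosines of a CpG were covered at 27 CpGs, so the strands could be compared site by site. At Prkcq the forward cytosine was above the reverse in all 3 libraries at 8 of 8 CpGs in each stage and assay, with a median difference in oxBS of 52.9 points in CD4 SP against 30.9 in naive CD4 cells. At Zbtb7b the reverse cytosine was the higher in BS at 10 of 14 CpGs in CD4 SP, and the forward cytosine was at 9 of 14 in naive CD4. In oxBS at Zbtb7b the reverse cytosine was the higher at 7 of 14 in CD4 SP and at 10 of 14 in naive CD4 cells. Il6ra turned over in oxBS, where the reverse cytosine was higher at 5 of 5 CpGs in CD4 SP and the forward cytosine at 4 of 5 in naive CD4. As background, maintenance methylation keeps both strands of a CpG modified alike, and the strands of bisulfite-treated DNA are no longer complementary and are amplified and read separately. The part of depth in these differences was not tested.

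**Figure D4:**
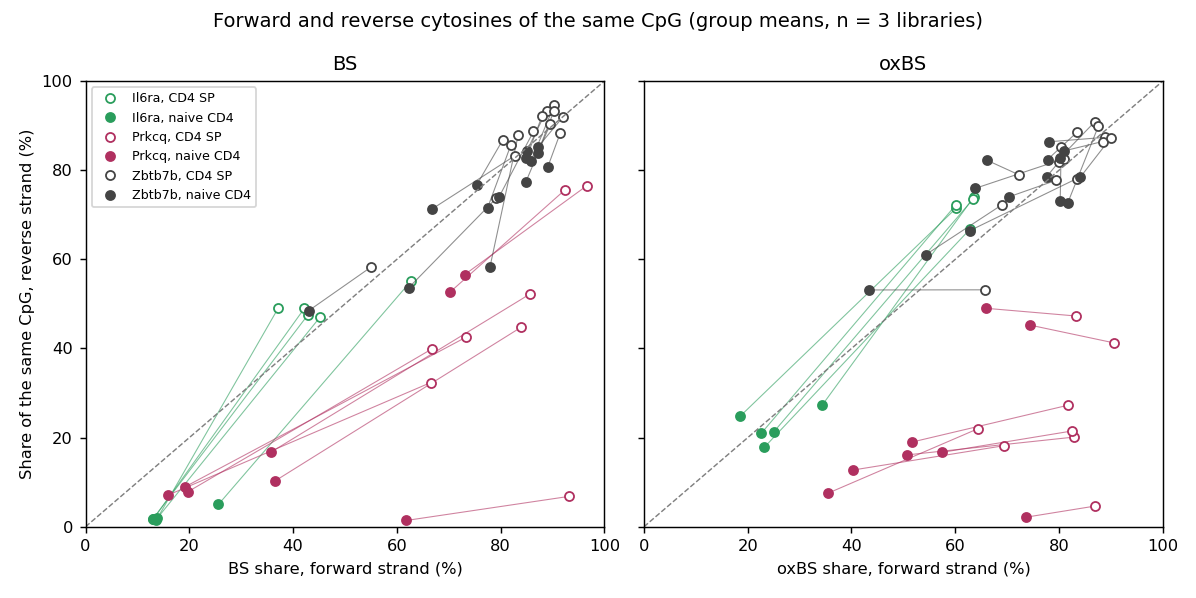
Share (percent) of the reverse against the forward cytosine of the 27 CpGs covered on both strands, group means of 3 libraries, open for CD4 SP and filled for naive CD4, with a line joining the stages of a CpG and a dashed line where the strands are equal. Prkcq lies far below the dashed line in both assays, with median oxBS differences of 52.9 and 30.9 points, and Zbtb7b and Il6ra lie closer to it.

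The hierarchical model of the study weighs both assays together and estimates C, 5mC and 5hmC for each stage. A Bayes factor above 1, the study's threshold, means that a difference between stages is favoured over none. It was reached at 14 of 65 cytosines (21.5%), of which 6 lay in Il6ra, 7 in Prkcq, 1 in Zbtb7b and none of 8 in Pax5. All 6 of Il6ra were on the reverse strand, and the E-box cytosine 89679174 was among them with a Bayes factor of 1.83. The 5 forward cytosines of Il6ra had Bayes factors from 0.245 to 0.564, although edgeR called all 5 lower in both assays. Their values include naive CD4 BS library 1 on 72 to 73 reads, and its part in these Bayes factors was not tested. The highest value, 5.05, was at Prkcq 11124534 (forward strand), and the values of 89679156 in Il6ra (0.998, not called) and of 89184954 in Zbtb7b (1.05, called) lay next to the threshold. When any 1 replicate was left out, 4 to 6 cytosines lay above 1.

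The model's mean proportions cannot fall below 0, so they depart from the direct estimate wherever BS minus oxBS is negative. Over all 65 cytosines the posterior mean was 72.7% 5mC and 5.13% 5hmC in CD4 SP against 56.3% 5mC and 2.44% 5hmC in naive CD4 cells. At Prkcq 5hmC went from 11.9 to 1.77% and 5mC from 54.3 to 35.8%. On its reverse strand 5hmC was 21.5% in CD4 SP against 2.42% in naive CD4, the highest of any locus and strand in CD4 SP. That strand had library medians of only 59 to 526 reads. On the forward strand of Prkcq, with medians of 6888 to 11497 reads, 5hmC was 3.38% in CD4 SP against 1.19% in naive CD4. Il6ra had 0.970 and 0.588% 5hmC, with C going from 39.8 to 80.3%, where C includes any 5fC and 5caC. Zbtb7b had 3.93 and 3.77%, and Pax5 1.11 and 1.96%. The 14 called cytosines, which the same model chose, had means of 63.6 and 32.6% 5mC and 8.54 and 1.40% 5hmC in CD4 SP and naive CD4 cells.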

How the data were processed

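The data are 12 targeted libraries of mouse CD4 SP and naive CD4 cells, in 4 groups of 3 by stage and assay, grouped and numbered from their labels. The 65 CpG cytosines, loci and named sites were chosen with earlier results of these data known.

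Per the labels and the study's methods, the authors trimmed adapters and aligned read pairs to mm9 with the lambda genome by Bismark 0.7.12 and Bowtie2. The deposited files give per cytosine the count of unconverted and of converted reads and the percent calculated by the authors, without normalization between libraries. Shares were recomputed here from the deposited counts, and the deposited percent was not used further. Reads carry no molecular identifiers, so intervals (95%, Wilson) cover counting error only. Positions were made 1-based, and all 801 mouse positions were a C or G in NCBIM37. Sequence and strand are from NCBIM37 and annotation from GENCODE vM1. Positions with gaps under 1000 bp formed 1 locus. The Zbtb7b exon is number 2 or 3 by transcript.

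A library's value was the mean share over cytosines, each weighted equally. Groups were compared by exact permutation of library values (20 arrangements, two-sided, smallest p 0.10), with Benjamini-Hochberg adjustment over loci or strands and measures. Contrasts between loci or strands permuted the stages of the within-library differences. Single cytosines were tested with edgeR 4.0.16 (quasi-likelihood, 12 libraries in 1 fit, 8 residual degrees of freedom, R 4.3.3) on the deposited counts. A run on simulated counts drew each cytosine on its own with a fixed spread. It therefore cannot show how shared reads or unlike libraries affect the p-values. The fit treats each strand's cytosines as separate, although a read covers several. Bayes factors followed the model of the study (Dirichlet parameter 0.8, oxidation efficiency 0.9, sequencing error 0, conversion from the lambda controls) by numerical integration in SciPy 1.17.1 in place of sampling, with these parameters fixed instead of estimated.

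BS and oxBS libraries of a stage were paired by number, since the labels describe a divided DNA, though the titles number replicates only. Their deviations from group means (65 cytosines) correlated at -0.226 to 0.396 in CD4 SP and -0.151 to 0.166 in naive CD4 pairs. Over the 44 with at least 1000 reads the ranges were 0.265 to 0.711 and -0.0762 to 0.440, so pairing by number was not settled. The alternative pairing by covered intervals set BS 2 with oxBS 1, the libraries that list chromosome 6. Whether numbers also pair the stages was checked by correlating deviations from group means over the 65 cytosines. Same-numbered BS libraries correlated at 0.171 to 0.192, but at as low as -0.245 over the 44 with at least 1000 reads, and oxBS libraries at 0.0874 to 0.139, or 0.463 to 0.466 over those 44. The answer differed with assay and coverage, and the replicate block was kept as an alternative. For each locus the named cytosines are those with the largest change of each measure, the smallest oxBS change, the E-box CpG and the member nearest the 10-read minimum. The cytosines 89679155, 89679156, 89679162, 11124529, 11124530, 11124534 and 89184825 were named after their values were seen. Alternatives were other coverage minimums, pooled reads, conversion and oxidation corrections, strands averaged first, another pairing, agreeing libraries counted as 1, members covered in all 18 libraries, other tests (edgeR likelihood ratio, limma 3.58.1 with a pseudocount of 1) and leaving out each replicate. Within-batch values were not computed, because the labels give no batch.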

Additional observations from a re-analysis of the deposited data

Results flagged for a closer look

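CpG cytosines outside the rule carried signal above the background of conversion. On chromosome 6, positions of 3 intergenic intervals were listed in only 4 of the 12 libraries, CD4 SP BS 2, CD4 SP oxBS 1, naive CD4 BS 2 and naive CD4 oxBS 1, 1 library for each stage and assay. From 70674839 to 70674989 the mean share of 24 cytosines was 65.5% in CD4 SP BS and 97.0% in CD4 SP oxBS, and 66.1% in naive CD4 BS and 94.1% in naive CD4 oxBS. From 70685669 to 70685740 the shares of 2 cytosines were 15.6% and 85.8% in CD4 SP against 12.3% and 87.3% in naive CD4. From 70693950 to 70694035 those of 3 cytosines were 16.5% and 91.8% in CD4 SP against 3.39% and 89.4% in naive CD4, on 226 to 2077 reads. The oxBS library was above the BS library in all 3 intervals and both stages, which no amount of 5hmC gives. With 1 library per group there is no replicate check, and the cause was not tested.

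In an intron of Gata3, the gene of a transcription factor of CD4 cells, 5 CpG cytosines were covered in every library but those of naive CD4 oxBS. Their BS share was 94.0% ± 0.751 in CD4 SP against 91.1% ± 0.833 in naive CD4 libraries (SD, n = 3), a difference of -2.93 points with no overlap (exact permutation p = 0.10). The CD4 SP oxBS share was 91.9% ± 0.403 (SD, n = 3). The change of 5mC and of BS minus oxBS at Gata3 was not analysed here.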

How the results depend on the processing

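Of 500 recomputed values, 479 were counted as kept. For a change this means that its direction was kept, and for a number of calls that it stayed within 1.5 times. A kept change could still move in size, as given below. The 479 include the library-level values with the replicate block, which equal the main values by construction. The change of BS minus oxBS at Il6ra, 0.813 points, was -3.64 with a minimum of 100 or of 1000 reads, -3.67 with pooled reads, -1.83 with strands averaged first and -3.12 with pairing by covered intervals. It ran from -3.57 to 3.06 when a replicate was left out. On the forward strand of Il6ra this change was -3.77 with pairing by covered intervals and ran from -4.77 to 13.1 without a replicate. Each of the read minimums removes that strand, where naive CD4 BS library 1 is shallow. Over all cytosines the change of BS minus oxBS was 4.26 points with pooled reads, and -5.80 when naive CD4 replicate 1 was also left out. The BS change at Pax5, all on the forward strand, ran from -0.321 to 1.26 points without a replicate and was -0.0431 without naive CD4 replicate 2. At the Zbtb7b reverse strand BS minus oxBS changed by -7.63 points with pairing by covered intervals. A Bayes factor above 3 was reached at 3 cytosines, and above 1 at 4 to 6 when a replicate was left out. Other values kept their direction but moved by over 1.5 times. The oxBS change was -32.9 points over all cytosines with pooled reads, and at Prkcq -23.1 with a minimum of 100 or 1000 reads and -23.2 with pooled reads. At the Prkcq reverse strand it was -1.80 with an oxidation efficiency of 0.9. The BS change at Pax5 was 1.18 points with pooled reads and 1.33 over cytosines covered in all 18 libraries, and the change of BS minus oxBS at Zbtb7b was -2.68 with pairing by covered intervals. Apart from the construction of these alternatives, the causes were not tested.

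The replicate block leaves the changes over all cytosines (-20.1 points in BS and -15.5 in oxBS) as they are by construction. Its exact sign-flip p was 0.25, the smallest that 8 arrangements allow, so it could change no call at the library level. With the block edgeR called 60 cytosines in BS and 57 in oxBS, and no count moved by over 1.5 times. Depth limits Pax5, where library medians began at 67.5 reads and the cytosine 44628784 had as few as 20, and the reverse strand of Prkcq, with as few as 59 reads.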
